A study of Homo sapiens with 11 samples.

Results

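The 39 genes described here encode lysosomal enzymes, lysosomal membrane proteins and the transcription factor TFEB. They were chosen by gene name from a list that was drawn up with earlier results of these data known, and all 39 were found among the 58735 genes of the deposited count table. Each of the 39 passed the filter on low counts, within 18368 genes tested. They comprise 6 membrane proteins, 8 proteases, 13 glycosidases, 5 sulfatases, 6 proteins that handle lipids or lipid-modified proteins, and TFEB. AGA, an amidase that acts on glycoproteins, is counted among the glycosidases.

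The study measured poly(A) RNA by sequencing in HEK293T cells, an established human embryonic kidney line that carries the SV40 large T antigen. It asked how gene expression responds when the modifier URM1, or the enzymes NAE1 and UBE2M that the study links to it, is depleted. NAE1 is a subunit of the activating (E1) enzyme for the ubiquitin-like protein NEDD8, UBE2M is a NEDD8-conjugating (E2) enzyme, and URM1 is a ubiquitin-like protein that also serves as a sulfur carrier. The 11 libraries fell into 4 groups, all of the same unmodified line: 3 control libraries, 3 with NAE1 siRNA at 50 nM (siNAE1), 3 with UBE2M siRNA at 70 nM (siUBE2M) and 2 with URM1 siRNA at 60 nM (siURM1). Knockdown cells received siRNA with Lipofectamine RNAiMAX and were harvested after 48 h. The sample labels name a control siRNA for the control libraries, and the study's methods describe a non-targeting siRNA as negative control in its knockdowns, with no dose given. A sample code of the study for the sequenced control group ends in WT, and what it stands for is not spelled out. If these controls were not transfected, an effect of transfection cannot be told apart from knockdown in any comparison with control. Each target was addressed with 1 commercial siRNA product, so effects of the product on other transcripts cannot be told apart from loss of the target.

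Lysosomes are acidic organelles that break down proteins, glycans and lipids delivered by endocytosis and autophagy. Most of their soluble hydrolases are made in the endoplasmic reticulum, receive mannose 6-phosphate in the Golgi and are carried to the lysosome by receptors that read this tag. A proton pump, the V-ATPase, keeps the lumen acidic, and heavily glycosylated membrane proteins such as LAMP1 and LAMP2 line it. TFEB and its relatives TFE3 and MITF are transcription factors held in the cytoplasm when mTORC1 is active at the lysosomal surface. In the nucleus they bind an E-box motif found near many lysosomal genes. Inherited loss of single enzymes on this list causes lysosomal storage diseases.

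Between 11733163 and 16321391 reads were assigned to genes per library. The targeted transcripts fell in the libraries labelled for them. NAE1 went from a mean of 102.4 CPM (counts scaled to a common library size) in control to 39.8 in siNAE1, UBE2M from 264.7 to 16.8 in siUBE2M, and URM1 from 53.6 to 15.3 in siURM1. In each case the highest knockdown library lay below the lowest control library. The share of reads from mitochondrially encoded genes was 4.57% to 4.93% in control, 4.90% to 5.32% in siNAE1, 4.12% to 4.43% in siUBE2M and 5.29% to 5.72% in siURM1. Of 10 genes that mark the HEK293 line, 9 reached 1 FPKM (fragments scaled by gene length and library size) in control. Of 8 markers of monocytes or macrophages, lysosome-rich cells, none did. Their summed level was low but not even, at 0.906 to 1.41 CPM in control, 2.59 to 3.68 CPM in siNAE1, 2.80 to 3.86 CPM in siUBE2M and 1.39 to 1.44 CPM in siURM1. Most of that difference was in CD14 (mean 0.474, 2.44, 2.49 and 0.790 CPM), while TYROBP had no read in any library and PTPRC stayed at or under a mean of 0.0955 CPM. Of 7 mature kidney tubule markers 1 reached 1 FPKM (LRP2), and their summed level was 30.4 to 37.2 CPM in control, 45.1 to 54.4 CPM in siNAE1, 37.5 to 44.3 CPM in siUBE2M and 24.5 to 32.3 CPM in siURM1. Of 6 fibroblast markers 1 did (COL1A1), with sums of 21.5 to 26.5, 25.0 to 26.8, 31.6 to 37.5 and 26.9 to 30.1 CPM, and 5 hepatocyte markers stayed at or under 0.773 CPM in sum. The sums of the HEK293 markers were 494 to 528, 656 to 705, 609 to 700.2 and 741 to 817 CPM. The part of these shifts in the lysosomal results was not tested.

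In control cells the 39 genes covered a wide range of expression on the FPKM scale, which divides by gene length. Their median was 8.69 FPKM. The order between genes depends on the deposited lengths, whose derivation is not given. SCARB2, with a length of 19341 bases, was at 109.2 CPM and 5.60 FPKM. LAMP2, with a length of 5526 bases, was at 103.5 CPM and 18.6 FPKM. PSAP, the precursor of the saposins that help sphingolipid hydrolases reach their substrates, was highest at 102 ± 1.2 FPKM (SD, n = 3). It was followed by GLA, the alpha-galactosidase A missing in Fabry disease, at 66.5 ± 5.2 FPKM. CD63, a tetraspanin of late endosomes and lysosomes, stood at 52.6 ± 2.4 FPKM, GAA, the acid alpha-glucosidase that degrades lysosomal glycogen, at 40.5 ± 2.1 FPKM, and PPT1, a thioesterase that removes palmitate from proteins, at 27.4 ± 1.1 FPKM. These 5 genes did not overlap one another in the 3 control libraries. Below them the order was less certain, since 25 of the 38 neighbouring pairs in the ranking had overlapping control values.

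**Figure D1:**
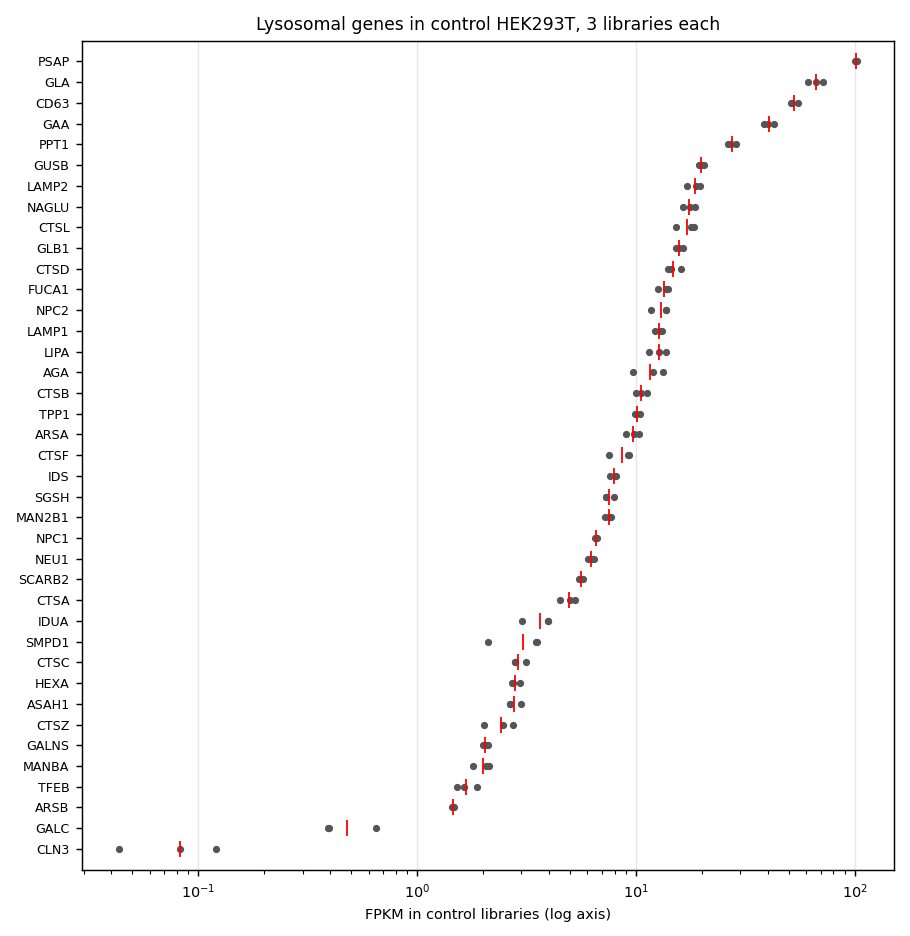
FPKM of each lysosomal gene in the 3 control libraries (grey points) and their mean (red bar), on a log axis, ordered by mean. PSAP is highest at 102 FPKM, most genes lie between 1 and 30, and CLN3 is lowest at 0.0823 FPKM.

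At the low end, ARSB, which removes sulfate from dermatan and chondroitin sulfate, was at 1.47 ± 0.02 FPKM. GALC, the galactosylceramidase missing in Krabbe disease, was at 0.480 ± 0.149 FPKM. CLN3, a membrane protein mutated in juvenile Batten disease, was at 0.0823 ± 0.0387 FPKM, from 7 to 20 reads per control library. The coefficient of variation over the controls was 6.38% in the median gene and above 10% in 9 genes, so differences in GALC and CLN3 rest on few reads. In all, 18 genes were at 10 FPKM or more, 19 between 1 and 10, and 2 below 1.

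Transcripts of the 39 genes made up 0.250% to 0.253% of all assigned reads in control, 0.316% to 0.320% in siNAE1, 0.270% to 0.277% in siUBE2M and 0.328% to 0.334% in siURM1. No knockdown library overlapped the controls. In bulk RNA a change in the make-up of the culture and a change of RNA per cell cannot be told apart.

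Tested gene by gene with edgeR's quasi-likelihood test (adjusted p under 0.05 over all genes), 22 of the 39 lysosomal genes were higher and 5 lower in siNAE1 than in control. Over all tested genes, 54.7% changed in that comparison, 27.6% upward and 27.1% downward. In siUBE2M, 18 were higher and 5 lower, against 45.3% of all genes changed, 22.7% upward and 22.6% downward. In siURM1, 24 were higher and 5 lower, against 41.6% of all genes changed, 20.8% upward and 20.8% downward. The genes called lower were 3 in siUBE2M without siUBE2M replicate 1, and 3 in siURM1 without control replicate 1 or without control replicate 2. With every library in, the share of the 39 that changed was 69.2%, 59.0% and 74.4%, with the excess over all genes on the upward side. All 39 are protein-coding, and in a fit of protein-coding genes only, 61.6%, 53.1% and 49.3% of all genes changed. With at least 10 counts in every library, which 38 of the 39 had, it was 62.7%, 54.1% and 50%. The excess was smaller against these shares. Shares of all genes given below include noncoding and weakly expressed genes. The 3 comparisons share the same control libraries and are not independent of one another.

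The median log2 fold change of the 39 genes was 0.39 in siNAE1, 0.14 in siUBE2M and 0.40 in siURM1, while the median over all tested genes was 0.00, 0.01 and -0.02. Scaled by library totals in place of TMM, the median of all genes was -0.13, -0.05 and -0.11, and that of the lysosomal genes 0.26, 0.0801 and 0.31. The distance between them stayed at 0.39, 0.13 and 0.42. Without siUBE2M replicate 3 the siUBE2M median of the lysosomal genes was 0.0896. Under that scaling 38.3% of all changed genes were upward in siNAE1 rather than 50.5%, and 38.5% rather than 50.0% in siURM1. Among the changed lysosomal genes the upward share went from 81.5% to 77.8% and from 82.8% to 80.0%.

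Changes of at least 2-fold (differentially expressed genes, or DEGs) made up 15.4%, 7.69% and 10.3% of the 39 in siNAE1, siUBE2M and siURM1. In siNAE1 there were 4 such genes upward (CTSA, GLA, MAN2B1 and NPC2) and 2 downward (CTSB and AGA), where 13.9% of all genes were DEGs. In siUBE2M there were 2 upward (CTSA and CLN3) and 1 downward (AGA), against 7.11% of all genes. In siURM1 there were 3 upward (CTSA, GLA and NEU1) and 1 downward (AGA), against 7.62% of all genes. Scaled by library totals, GLA and NPC2 in siNAE1 (log2 0.96 each), GLA in siURM1 (0.93) and CLN3 in siUBE2M fell just under 2-fold.

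An E-box core, TCACGTGA, lies in the promoters of several of these genes and is the centre of the motif bound by TFEB. The letters read the same on both strands. RefSeq promoter windows, each from 250 bases before to 50 bases after an annotated start on GRCh38.p14, were matched for 30 of the 39 genes. TCACGTGA was present in 5 of the 30 (16.7%), in CTSA, LAMP1, GAA, GALNS and CLN3, against 1.18% of all 27305 genes with such windows and 2.09% of the 11654 of them whose symbol was tested. The shorter CACGTG, which every TCACGTGA contains, was present in 10 of the 30 (33.3%), against 8.77% of all genes and 12.3% of those tested. The windows of CTSA, LAMP1, CLN3 and GAA are printed because these 4 genes carry the longer motif and are among those described in detail below. Capitals mark TCACGTGA, and each window runs 5′ to 3′ on the strand of the gene.
CTSA promoter, chr20:45891085-45891384, plus strand: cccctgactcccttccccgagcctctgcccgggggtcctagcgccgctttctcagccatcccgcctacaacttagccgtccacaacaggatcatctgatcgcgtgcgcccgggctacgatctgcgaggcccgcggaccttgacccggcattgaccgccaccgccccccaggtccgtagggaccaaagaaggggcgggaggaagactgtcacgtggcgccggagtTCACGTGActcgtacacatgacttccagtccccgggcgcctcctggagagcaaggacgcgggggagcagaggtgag
LAMP1 promoter, chr13:113296989-113297288, plus strand: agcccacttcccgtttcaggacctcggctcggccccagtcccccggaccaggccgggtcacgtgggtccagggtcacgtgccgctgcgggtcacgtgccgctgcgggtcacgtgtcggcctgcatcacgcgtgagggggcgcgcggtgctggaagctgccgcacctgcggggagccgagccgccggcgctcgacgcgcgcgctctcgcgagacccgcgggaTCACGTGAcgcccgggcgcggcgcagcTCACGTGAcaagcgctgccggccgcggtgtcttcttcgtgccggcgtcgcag
CLN3 promoter, chr16:28492025-28492324, minus strand: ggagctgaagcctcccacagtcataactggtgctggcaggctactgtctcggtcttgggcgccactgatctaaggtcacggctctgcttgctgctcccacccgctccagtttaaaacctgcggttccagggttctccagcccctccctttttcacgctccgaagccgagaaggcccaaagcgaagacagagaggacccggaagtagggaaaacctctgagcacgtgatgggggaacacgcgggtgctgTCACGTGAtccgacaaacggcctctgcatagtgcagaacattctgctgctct
GAA promoter, chr17:80101331-80101630, plus strand: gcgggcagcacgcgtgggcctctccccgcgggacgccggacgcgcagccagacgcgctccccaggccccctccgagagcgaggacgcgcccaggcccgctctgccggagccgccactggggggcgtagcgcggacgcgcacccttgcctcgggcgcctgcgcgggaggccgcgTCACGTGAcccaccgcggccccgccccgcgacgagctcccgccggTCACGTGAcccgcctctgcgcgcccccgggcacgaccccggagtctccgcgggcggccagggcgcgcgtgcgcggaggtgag

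In the CTSA window the motif starts 26 bases upstream of the annotated start. LAMP1 holds it 29 and 2 bases upstream and has 6 CACGTG in all, GAA holds it 77 and 32 bases upstream, CLN3 2 bases upstream in the window shown, and GALNS 175 bases upstream. Of the genes with the motif, CTSA and LAMP1 rose in every knockdown and GAA fell in every knockdown. CLN3 (0.48, 1.02 and 0.56) and GALNS (0.24, 0.60 and 0.53) had positive log2 values in siNAE1, siUBE2M and siURM1. CLN3 passed the threshold in siUBE2M only, and GALNS in siUBE2M and siURM1. Genes without a window were not examined, and a link between the motif and the direction of change was not tested. These are matches of letters, with no binding measured.

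Among the 6 membrane proteins, 3 were higher in siNAE1, 5 in siUBE2M and 4 in siURM1, and none was lower. The share called was 50.0%, 83.3% and 66.7%, against 54.7%, 45.3% and 41.6% of all genes. LAMP1, a principal glycoprotein of the lysosomal membrane, was at 76.3, 74.0 and 70.5 CPM in the control libraries. It was at 140.1, 146.7 and 150.4 CPM in siNAE1, at 107.1, 104.0 and 111.0 CPM in siUBE2M, and at 150.0 and 140.0 CPM in siURM1. Every knockdown library lay above every control library, and the siUBE2M libraries lay between control and the other knockdowns. The log2 fold changes were 0.99 ± 0.07 (SE), 0.54 ± 0.07 and 0.98 ± 0.07, with edgeR adjusted p of 3.6e-14, 3.2e-08 and 9.9e-13.

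LAMP2, its relative that also acts in chaperone-mediated autophagy, was at 95.8 to 109.9 CPM in control. It reached 127.7 to 144.0 CPM in siNAE1, 119.5 to 126.7 CPM in siUBE2M, and 170.5 and 173.6 CPM in siURM1, with no overlap with control. LAMP2 log2 fold changes were 0.39 ± 0.07, 0.25 ± 0.07 and 0.73 ± 0.07, with edgeR adjusted p of 8.9e-06, 0.0027 and 7.8e-10. CD63 also rose in each knockdown, by 0.32 to 0.42 on the log2 scale.

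CLN3 is the uncertain case in this group. Its level was 1.21, 0.431 and 0.820 CPM in control, 1.05 to 1.23 CPM in siNAE1, 1.48 to 1.84 CPM in siUBE2M, and 1.25 and 1.18 CPM in siURM1. The siUBE2M libraries lay above the controls, with a log2 fold change of 1.02 ± 0.40 and an edgeR adjusted p of 0.036, and the other 2 knockdowns overlapped them. That call was lost in 6 of the 19 alternative analyses that tested it, among them DESeq2 and the fits without control replicate 2 or without siUBE2M replicate 1. CLN3 overlaps APOBR on the opposite strand and a second protein-coding gene on its own strand, which limits what its count means. SCARB2, the receptor that brings glucocerebrosidase to lysosomes, passed in siURM1 (0.18), a call lost in 11 of 21 alternatives. NPC1, which exports cholesterol from lysosomes, passed in siUBE2M (0.21), a call lost in 3, and overlaps RMC1 on the opposite strand (33.3 CPM in control and 37.0, 41.9 and 29.9 CPM in the knockdowns, scaled by library totals).

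Among the 8 proteases, 4 rose and 2 fell in siNAE1, 4 rose in siUBE2M, and 6 rose in siURM1, or 75.0%, 50.0% and 75.0% called against the same shares of all genes. CTSA, the protective protein that keeps NEU1 and beta-galactosidase stable in a complex, rose in every knockdown. It was at 29.8, 30.9 and 26.5 CPM in control. It was at 83.1, 88.8 and 86.5 CPM in siNAE1, at 79.9, 79.6 and 85.5 CPM in siUBE2M, and at 88.1 and 95.6 CPM in siURM1. All knockdown libraries were far above the controls.

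The CTSA fold changes were 2.96, 2.81 and 3.16, or 1.57 ± 0.08, 1.49 ± 0.08 and 1.66 ± 0.08 on the log2 scale, with edgeR adjusted p of 3e-17, 2.7e-16 and 1.7e-16. No pair of knockdowns differed in CTSA at an adjusted p under 0.05 (edgeR adjusted p of 0.41, 0.39 and 0.10). The intervals (95%) of those log2 differences were -0.07 to 0.23 for siNAE1 minus siUBE2M, -0.26 to 0.07 for siNAE1 minus siURM1 and -0.33 to -0.01 for siUBE2M minus siURM1. CTSA overlaps PLTP and NEURL2 on the opposite strand. PLTP, at 31.4 CPM in control, was at 35.9, 17.9 and 22.7 CPM in the knockdowns when scaled by library totals, and its part in the CTSA counts was not tested.

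CTSB, an abundant cysteine protease, moved in opposite directions. It was at 75.4, 83.6 and 78.7 CPM in control and at 28.6, 29.1 and 27.9 CPM in siNAE1. In siUBE2M it was at 97.8, 89.9 and 102.0 CPM, and in siURM1 at 148.1 and 146.8 CPM. The 4 groups did not overlap, with siNAE1 lowest, then control, siUBE2M and siURM1. The log2 fold change was -1.47 ± 0.08 in siNAE1, 0.28 ± 0.07 in siUBE2M and 0.90 ± 0.07 in siURM1, with edgeR adjusted p of 9.4e-17, 0.001 and 2.3e-11.

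CTSL, a cysteine endopeptidase, was at 44.2, 42.4 and 36.2 CPM in control. It was at 57.2 to 61.5 CPM in siNAE1, at 58.2 to 63.9 CPM in siUBE2M, and at 70.2 and 84.6 CPM in siURM1, with no overlap with control. Expressed as log2 fold changes, these were 0.52 ± 0.09, 0.56 ± 0.08 and 0.92 ± 0.09, with edgeR adjusted p of 4.7e-06, 1.8e-06 and 1.1e-09. The table also lists 6 CTSL pseudogene entries, so some reads of this gene may have been split or lost in counting.

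Of the remaining proteases, CTSC, which activates granule serine proteases, rose in each knockdown, by 0.24 to 0.74 on the log2 scale, with the siUBE2M call lost in 4 of 21 alternatives. CTSD, the main aspartic protease, rose in siNAE1 (0.62) and siURM1 (0.61) and was at 0.14 in siUBE2M with an adjusted p of 0.19. TPP1, an aminopeptidase missing in late infantile Batten disease, fell in siNAE1 (-0.21) and rose in siURM1 (0.21), calls that were lost in 2 and 7 of 21 alternatives. CTSF and CTSZ passed in no knockdown.

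**Figure D2:**
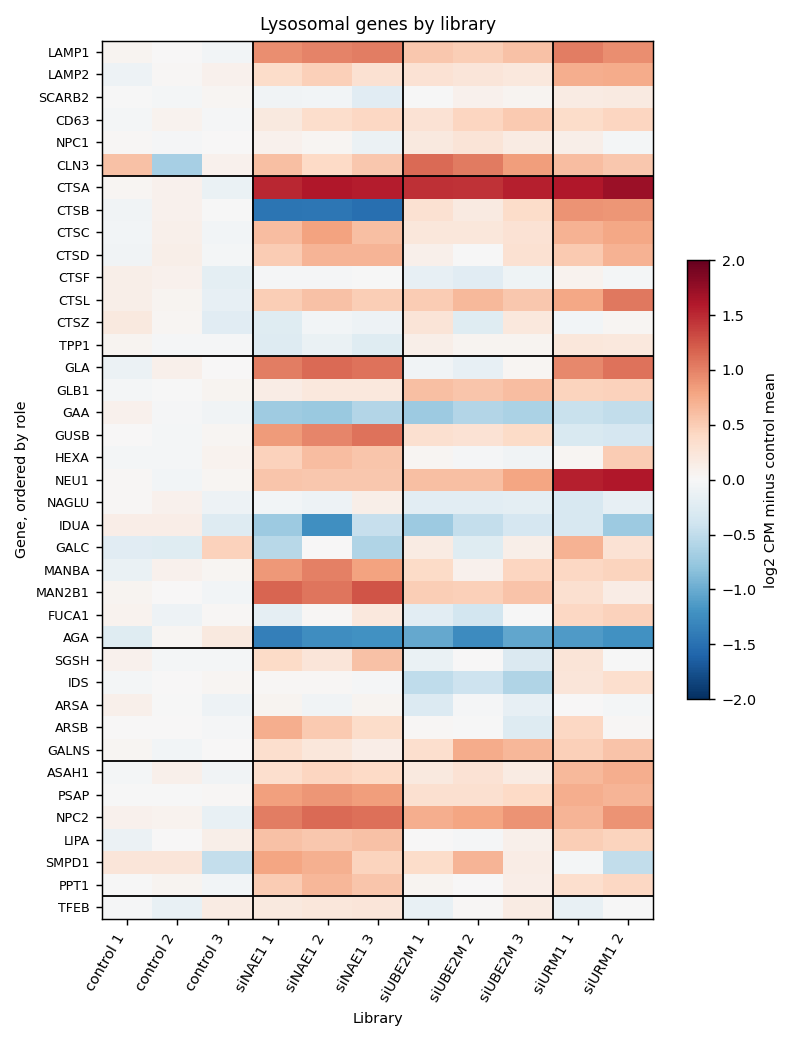
Log2 CPM of each lysosomal gene in each of the 11 libraries minus its mean in the 3 control libraries, ordered by role and capped at 2 in either direction. Libraries of a group look alike for most genes, CTSA is high in all 8 knockdown libraries, AGA is low in all 8, and CTSB is low in siNAE1 only.

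The 13 genes grouped as glycosidases, which include the amidase AGA, moved in both directions. In siNAE1 7 rose and 3 fell, in siUBE2M 5 rose and 4 fell, and in siURM1 7 rose and 5 fell, or 76.9%, 69.2% and 92.3% called against 54.7%, 45.3% and 41.6% of all genes. AGA, the aspartylglucosaminidase that cuts the link between asparagine and N-glycans, fell most. It was at 26.4, 32.2 and 35.8 CPM in control. It was at 11.98, 13.2 and 13.5 CPM in siNAE1, at 15.3, 12.98 and 15.1 CPM in siUBE2M, and at 14.2 and 13.4 CPM in siURM1. All 8 knockdown libraries lay below the lowest control.

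The AGA log2 fold changes were -1.29 ± 0.12, -1.12 ± 0.11 and -1.19 ± 0.13, with edgeR adjusted p of 5.1e-11, 1.2e-09 and 6.6e-09. GAA was at 223.7, 206.9 and 201.0 CPM in control, at 125.9 to 139.9 CPM in siNAE1, at 127.2 to 139.8 CPM in siUBE2M, and at 154.5 and 149.0 CPM in siURM1. It fell by 0.68 ± 0.06, 0.65 ± 0.06 and 0.47 ± 0.07 on the log2 scale, with edgeR adjusted p of 1.3e-10, 6.7e-10 and 2.5e-06.

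IDUA, which acts on heparan and dermatan sulfate and is missing in Hurler syndrome, was at 16.1, 16.0 and 12.2 CPM in control. It was at 8.76, 6.15 and 10.6 CPM in siNAE1, at 8.76, 10.5 and 11.6 CPM in siUBE2M, and at 11.7 and 8.80 CPM in siURM1, all below the lowest control. It fell by 0.81 ± 0.16, 0.52 ± 0.16 and 0.52 ± 0.18 on the log2 scale, with edgeR adjusted p of 8.9e-05, 0.0072 and 0.017. The siUBE2M call was lost without siUBE2M replicate 1 and the siURM1 call without control replicate 1, control replicate 2 or siURM1 replicate 2. When 1 library was left out, the siURM1 value ran from -0.74 to -0.33. SLC26A1, which overlaps IDUA on the opposite strand, was also lower, at 3.86 CPM in control and 2.22, 2.88 and 1.64 CPM in the knockdowns scaled by library totals, and its part in the IDUA counts was not tested.

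NEU1, the sialidase that depends on CTSA, was at 30.9, 29.2 and 31.4 CPM in control. It was at 44.9, 44.4 and 44.5 CPM in siNAE1, at 46.2, 46.4 and 53.0 CPM in siUBE2M, and at 90.1 and 92.3 CPM in siURM1. The siURM1 libraries stood far above all others. On the log2 scale NEU1 rose by 0.55 ± 0.08, 0.67 ± 0.08 and 1.58 ± 0.08, with edgeR adjusted p of 7.4e-07, 2.6e-08 and 6.8e-16.

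GLA was at 141.0, 163.3 and 153.2 CPM in control. It was at 311.2, 335.1 and 322.9 CPM in siNAE1, at 145.4, 135.7 and 156.4 CPM in siUBE2M, and at 295.0 and 323.5 CPM in siURM1. The siUBE2M libraries overlapped the controls, and the siNAE1 and siURM1 libraries were well above both. The log2 fold change was 1.08 ± 0.07 in siNAE1 and 1.02 ± 0.07 in siURM1, with edgeR adjusted p of 4.8e-15 and 5.4e-13, and -0.06 ± 0.07 in siUBE2M with an adjusted p of 0.45. Its siURM1 value fell under the 2-fold mark without control replicate 1 or without siURM1 replicate 2, at 0.96 or above in every fit that left out 1 library.

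GUSB, the beta-glucuronidase, was at 80.1, 77.6 and 82.2 CPM in control. It was at 143.8, 157.2 and 169.8 CPM in siNAE1, at 99.9, 98.2 and 104.1 CPM in siUBE2M, and at 64.5 and 63.2 CPM in siURM1. The groups did not overlap, and siURM1 alone lay below control. The log2 fold changes were 0.97 ± 0.07, 0.33 ± 0.07 and -0.32 ± 0.08, with edgeR adjusted p of 1.3e-13, 1.6e-04 and 0.0011. The table lists 11 GUSB pseudogene entries, so its reads may have been shared with near copies.

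MAN2B1, the acid alpha-mannosidase, was at 42.1, 40.8 and 39.2 CPM in control. It was at 90.9, 85.5 and 98.0 CPM in siNAE1, at 57.2, 56.5 and 60.2 CPM in siUBE2M, and at 50.9 and 45.0 CPM in siURM1. Each knockdown lay above control, siNAE1 by the widest margin. MAN2B1 rose on the log2 scale by 1.17 ± 0.08, 0.51 ± 0.08 and 0.24 ± 0.09, with edgeR adjusted p of 3.3e-14, 2.2e-06 and 0.028. The siURM1 call was lost without control replicate 3 or siURM1 replicate 1 and under scaling by library totals. Its value ran from 0.15 to 0.33 when 1 library was left out. MAN2B1 overlaps 2 protein-coding genes on its own strand, both at or under a mean of 0.091 CPM in each group scaled by library totals, and their part was not tested.

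**Figure D3:**
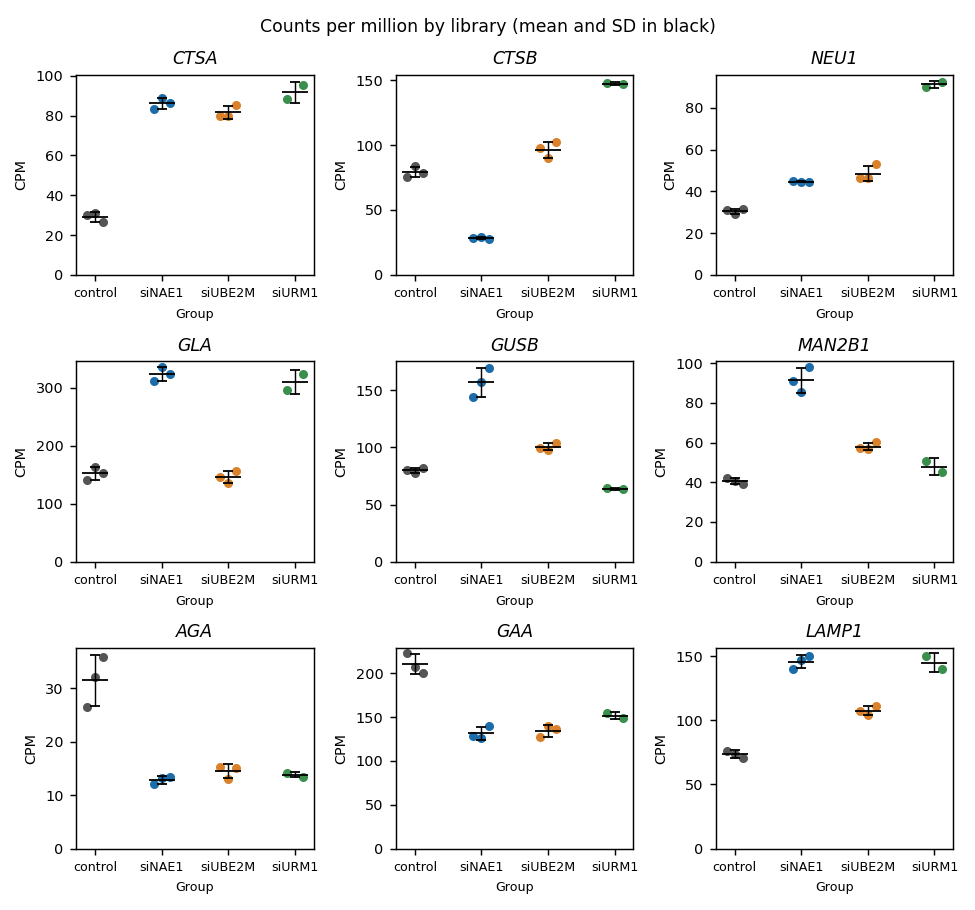
CPM in every library for 9 lysosomal genes, by group, with the mean and SD in black and axes starting at 0. CTSA and LAMP1 are higher and AGA and GAA lower in every knockdown, GLA is at control level in siUBE2M, and CTSB and GUSB change direction between groups.

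Of the other glycosidases, MANBA, the beta-mannosidase, rose in each knockdown, by 0.31 to 0.90 on the log2 scale, with the siUBE2M call lost in 4 of 21 alternatives. GLB1, the beta-galactosidase, rose in each knockdown as well, by 0.19 to 0.59, with the siNAE1 call lost in 2. HEXA, the alpha subunit of beta-hexosaminidase, rose in siNAE1 (0.55) and siURM1 (0.29). The siURM1 libraries, at 36.7 and 50.8 CPM, overlapped control (34.7 to 37.6 CPM), and that call was lost in 5 of 21 alternatives, with a value of 0.04 without siURM1 replicate 2. FUCA1, the fucosidase, rose in siURM1 (0.43), and NAGLU, which acts on heparan sulfate, fell in siUBE2M (-0.21) and siURM1 (-0.25). Those NAGLU calls were lost in 7 and 4 of 21 alternatives, the first without any 1 of the siUBE2M libraries. GALC passed in no knockdown, with log2 values of -0.40, -0.02 and 0.49 on few reads.

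Of the 5 sulfatases, 2 rose in siNAE1, 1 rose and 1 fell in siUBE2M, and 2 rose in siURM1. The share called was 40.0% in each, against 54.7%, 45.3% and 41.6% of all genes. IDS, the iduronate sulfatase missing in Hunter syndrome, was at 71.9, 74.7 and 76.1 CPM in control. It was at 72.8 to 75.7 CPM in siNAE1, at 52.1, 55.4 and 48.8 CPM in siUBE2M, and at 88.2 and 93.6 CPM in siURM1. The siNAE1 libraries overlapped control, the siUBE2M libraries lay below it and the siURM1 libraries above it. The log2 fold changes were 0.01 ± 0.07 (adjusted p = 0.94), -0.51 ± 0.07 (adjusted p = 5.8e-07) and 0.29 ± 0.08 (adjusted p = 0.0026), and the last was lost without siURM1 replicate 2.

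Reads of IDS cannot be fully separated from those of a protein-coding gene on its own strand, AC244197.3, listed at 4.48 CPM in control and 1.88, 1.54 and 2.28 CPM in the knockdowns scaled by library totals, or from its pseudogene. ARSB was at 13.2 to 13.5 CPM in control and rose to 17.2 to 22.3 CPM in siNAE1, a log2 fold change of 0.55 ± 0.12 with an edgeR adjusted p of 3e-04. It did not pass in siUBE2M or siURM1. SGSH, which removes sulfate from heparan sulfate, rose in siNAE1 (0.40), and GALNS, which acts on keratan sulfate, rose in siUBE2M (0.60) and siURM1 (0.53). GALNS overlaps TRAPPC2L on the opposite strand, at 36.1 CPM in control and 58.6, 42.9 and 44.8 CPM in the knockdowns scaled by library totals, and SGSH overlaps SLC26A11, at 42.1 and then 42.7, 41.8 and 35.4 CPM. Their part in these counts was not tested. ARSA, missing in metachromatic leukodystrophy, passed in no knockdown.

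The 6 genes of lipid and lipoprotein handling all rose in siNAE1. In siUBE2M 3 rose and in siURM1 5 rose, and none fell in any comparison with control, or 100%, 50.0% and 83.3% called against 54.7%, 45.3% and 41.6% of all genes. NPC2, which hands cholesterol to NPC1 inside the lysosome, was at 38.3, 37.9 and 32.6 CPM in control. It was at 73.7, 79.4 and 77.8 CPM in siNAE1, at 59.8, 62.5 and 67.5 CPM in siUBE2M, and at 58.2 and 67.6 CPM in siURM1, with no overlap with control. The log2 fold changes were 1.08 ± 0.08, 0.80 ± 0.08 and 0.79 ± 0.09, with edgeR adjusted p of 9.4e-13, 1.5e-09 and 1.6e-08.

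NPC2 overlaps ISCA2 on the opposite strand, which went from 26.0 CPM in control to 21.7, 18.5 and 13.3 CPM in the knockdowns scaled by library totals, and its part in the NPC2 counts was not tested. PSAP was at 330.8, 330.2 and 336.3 CPM in control. It was at 589.9, 615.8 and 596.6 CPM in siNAE1, at 414.4, 413.6 and 440.1 CPM in siUBE2M, and at 548.2 and 533.2 CPM in siURM1. PSAP rose on the log2 scale by 0.85 ± 0.05, 0.35 ± 0.05 and 0.70 ± 0.06, with edgeR adjusted p of 2e-14, 4.1e-06 and 4.2e-11.

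PPT1 was at 135.2 to 146.2 CPM in control, at 200.7 to 222.1 CPM in siNAE1, at 141.7 to 154.7 CPM in siUBE2M, and at 177.2 and 187.7 CPM in siURM1. It rose in siNAE1 (0.58 ± 0.06, adjusted p = 2.1e-09) and siURM1 (0.38 ± 0.07, adjusted p = 4.2e-05), and overlapped control in siUBE2M (0.07 ± 0.06, adjusted p = 0.37). CAP1, on the opposite strand, was at 60.9 CPM in control and 75.4, 68.2 and 67.5 CPM in the knockdowns scaled by library totals, and its part was not tested. ASAH1, the acid ceramidase, rose in each knockdown, by 0.22 to 0.69 on the log2 scale, with the siUBE2M call lost in 5 of 21 alternatives. LIPA, which splits cholesteryl esters, rose in siNAE1 (0.57) and siURM1 (0.47). SMPD1, the acid sphingomyelinase, rose in siNAE1 (0.63) and had values of 0.39 in siUBE2M and -0.29 in siURM1 without passing the test. Those 2 values passed in 5 and 1 of 21 alternatives. Leaving out 1 library gave 0.19 to 0.51 in siUBE2M and -0.54 to -0.08 in siURM1.

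TFEB itself showed no change past the threshold. It was at 9.36, 8.61 and 10.7 CPM in control, at 11.0, 11.2 and 11.3 CPM in siNAE1, at 8.62, 9.64 and 10.7 CPM in siUBE2M, and at 8.55 and 9.49 CPM in siURM1. The siNAE1 libraries lay just above the controls, and the other groups overlapped them. The log2 fold changes had intervals (95%) of -0.06 to 0.50, -0.26 to 0.30 and -0.40 to 0.23, with edgeR adjusted p of 0.17, 0.93 and 0.69. Its relative TFE3 was at 69.5 CPM in control and fell in siNAE1 (-0.26 ± 0.08, adjusted p = 0.0081) and siUBE2M (-0.43 ± 0.08, adjusted p = 6e-05), with -0.16 ± 0.09 (adjusted p = 0.15) in siURM1. MITF, at 13.9 CPM in control, fell in siNAE1 (-0.56 ± 0.13, adjusted p = 6.3e-04) and siUBE2M (-0.39 ± 0.13, adjusted p = 0.015), and was at 0.14 ± 0.14 (adjusted p = 0.44) in siURM1. These transcript levels say nothing of where the proteins were in the cell.

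The knockdowns were also compared with one another within the same fit, to whose scaling and spread the controls contribute. Between siNAE1 and siUBE2M 22 of the 39 genes differed (16 higher and 6 lower in siNAE1), where 44.3% of all genes did, and without siUBE2M replicate 2 these were 15 and 3. Between siNAE1 and siURM1 21 differed (9 higher and 12 lower in siNAE1), where 38.6% of all genes did. Between siUBE2M and siURM1 19 differed (3 higher and 16 lower in siUBE2M), where 35.0% of all genes did, and without siURM1 replicate 2 these were 1 and 15. Differences of at least 2-fold were found for 2, 3 and 1 of the 39 in these comparisons (5.13%, 7.69% and 2.56%), against 7.84%, 6.76% and 5.41% of all genes. The median log2 difference of the 39 was 0.17, -0.05 and -0.17 in these 3 comparisons. The first was 0.10 when scaled by library totals, and the second ran from -0.0668 to -0.0264 when 1 library was left out, the last value without siNAE1 replicate 1.

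In both comparisons with siNAE1 the largest difference was that of CTSB, at -1.76 ± 0.08 (log2, siNAE1 minus siUBE2M) and -2.37 ± 0.08 (siNAE1 minus siURM1), with edgeR adjusted p of 7.2e-18 and 3e-20. GLA was 1.15 ± 0.07 higher on the log2 scale in siNAE1 than in siUBE2M and lower in siUBE2M than in siURM1 (-1.08 ± 0.07), with edgeR adjusted p of 5e-15 and 2e-13. Between siNAE1 and siURM1 the GLA difference was 0.06, with an interval (95%) of -0.08 to 0.21. GUSB was higher in siNAE1 than in siURM1 by 1.30 ± 0.08 on the log2 scale (edgeR adjusted p = 2.3e-14), and MAN2B1 was higher in siNAE1 than in siUBE2M by 0.66 ± 0.08 (edgeR adjusted p = 1.5e-08).

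NEU1 was lower in siNAE1 than in siURM1 (-1.03 ± 0.08, edgeR adjusted p = 1.7e-11) and lower in siUBE2M than in siURM1 (-0.91 ± 0.08, edgeR adjusted p = 2.4e-10). IDS was lower in siUBE2M than in siURM1 (-0.80 ± 0.08, edgeR adjusted p = 1.2e-09). For LAMP1 the difference between siNAE1 and siURM1 was 0.01, with an interval (95%) of -0.14 to 0.15. With 2 siURM1 libraries, the spread behind these tests came largely from the other groups.

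Other lysosomal genes, in lists outside the 39, were examined in the same fit. Of 18 V-ATPase subunits, 16 rose and 1 fell in siNAE1, 11 rose and 2 fell in siUBE2M, and 13 rose and 1 fell in siURM1, with median log2 fold changes of 0.53, 0.31 and 0.33. The share called was 94.4%, 72.2% and 77.8%, against 54.7%, 45.3% and 41.6% of all genes tested. ATP6V0E1, a small subunit of the membrane sector, went from 40.6 CPM in control to 97.9, 59.6 and 60.8 CPM (log2 1.27 ± 0.09, 0.56 ± 0.09 and 0.58 ± 0.10, each past the threshold). ATP6V0D1, which couples the membrane sector to the rotor, went from 62.1 to 126.6, 83.2 and 85.3 CPM (1.03 ± 0.07, 0.42 ± 0.07 and 0.46 ± 0.08, each past the threshold). ATP6V0C, the proteolipid of the rotor ring, rose in siNAE1 (1.13 ± 0.19) and siUBE2M (0.49 ± 0.19) and was at 0.41 ± 0.22 in siURM1 (edgeR adjusted p = 0.13).

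Of 30 other hydrolases and activators tested, 17 rose and 10 fell in siNAE1, 14 rose and 8 fell in siUBE2M, and 14 rose and 7 fell in siURM1, with medians of 0.35, 0.09 and 0.26 and 90.0%, 73.3% and 70.0% called, against 54.7%, 45.3% and 41.6% of all genes. SUMF1, which activates all sulfatases, fell from 13.3 to 2.79 CPM in siNAE1 (-2.25 ± 0.16, edgeR adjusted p = 3.2e-13), while siUBE2M (13.4 CPM) and siURM1 (16.8 CPM) did not pass. None of the 5 sulfatase transcripts described above, which do not include ARSG and ARSK of this other list, was lower in siNAE1. SUMF1 acts on the sulfatase proteins, and their activity was not measured. CTSK, a collagen-degrading cathepsin, rose from 1.44 CPM to 5.14, 3.02 and 3.58 CPM (1.83 ± 0.27, 1.06 ± 0.29 and 1.30 ± 0.31, each past the threshold), and ACP5, tartrate-resistant acid phosphatase, fell from 1.29 CPM to 0.209, 0.346 and 0.457 CPM (-2.59 ± 0.61, -1.87 ± 0.55 and -1.48 ± 0.59, each past the threshold).

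Of 28 other membrane proteins tested, 13 rose and 6 fell in siNAE1, 10 rose and 4 fell in siUBE2M, and 11 rose and 4 fell in siURM1, with medians of 0.11, 0.06 and 0.16. The share called was 67.9%, 50.0% and 53.6%, against 54.7%, 45.3% and 41.6% of all genes. LAMP3, a member of the LAMP family, fell in siNAE1 (-1.55 ± 0.29, edgeR adjusted p = 3.3e-05), and SPNS1, a lysophospholipid transporter, rose in siUBE2M (1.14 ± 0.34, edgeR adjusted p = 0.0072) and siURM1 (1.07 ± 0.38, edgeR adjusted p = 0.022) from 0.963 CPM in control. Of 16 genes for mannose 6-phosphate sorting, 10 rose and 3 fell in siNAE1, 11 rose and 3 fell in siUBE2M, and 6 rose and 1 fell in siURM1, or 81.2%, 87.5% and 43.8% called. NAGPA, the enzyme that uncovers the mannose 6-phosphate tag, rose from 10.9 CPM to 25.5, 25.3 and 27.3 CPM (1.23 ± 0.10, 1.22 ± 0.10 and 1.33 ± 0.11, each past the threshold).

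Of 21 tested genes for the MiT/TFE factors and their control by mTORC1, 7 rose and 3 fell in siNAE1, 9 rose and 5 fell in siUBE2M, and 7 rose and 3 fell in siURM1, with medians of 0.05, 0.06 and 0.10. The share called was 47.6%, 66.7% and 47.6%, against 54.7%, 45.3% and 41.6% of all genes. Another list held 10 genes, for the HOPS and CORVET complexes, which tether endosomal and lysosomal membranes, and for RAB5A and RAB7A. Of these, 6 rose and 1 fell, 5 rose and 2 fell, and 4 rose and 1 fell, or 70.0%, 70.0% and 50.0% called. Of 8 cathepsin inhibitors only 4 had enough reads to be tested, and they moved in both directions in each knockdown.

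**Figure D4:**
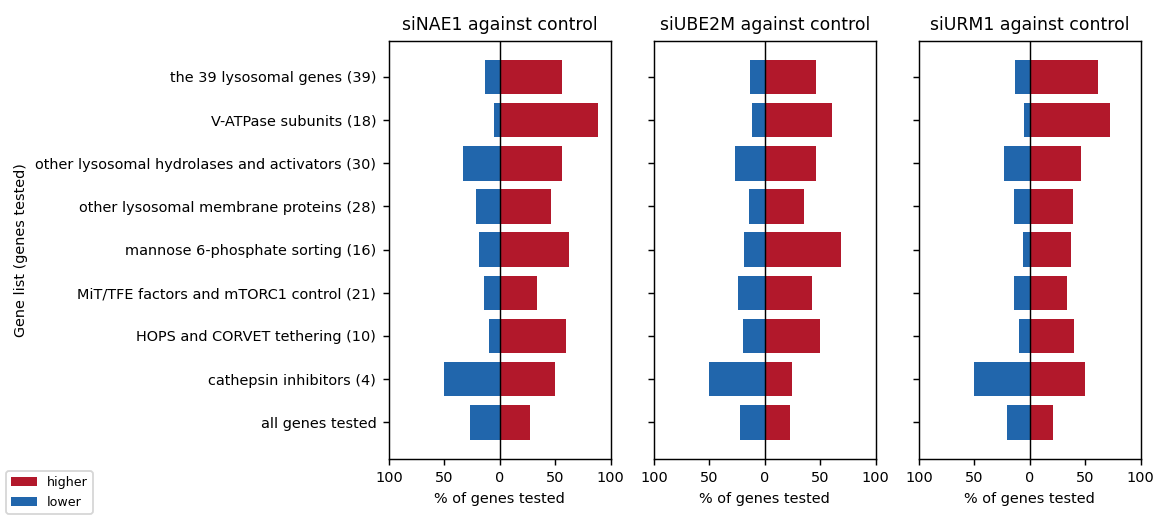
Share of the genes tested in each list that were higher (red, to the right) or lower (blue, to the left) than control at an adjusted p under 0.05, for each knockdown, with all tested genes in the bottom row. Among the lists plotted, V-ATPase subunits have the highest upward share in siNAE1 and siURM1 and mannose 6-phosphate sorting genes in siUBE2M, and all genes tested have a near-even split.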

How the data were processed

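Poly(A) RNA of 11 HEK293T libraries was sequenced as paired-end reads with a dUTP strand-specific protocol. Per the study's methods and the submitters' processing notes, the authors used fastp for read filtering, HISAT2 2.0.5 for alignment to GRCh38 and featureCounts 1.5.0-p3 for gene counts. Which annotation release was used, and whether counting took strand into account, is not given in the sources used here. The deposited files hold whole-number counts per gene, not normalized, and FPKM values computed by the authors from those counts and each gene's length, another deposited column. Without the strand setting, reads of a gene and of a gene on the opposite strand may not have been separated, and 20 of the 39 genes overlap one. On their own strand 14 of the 39 overlap another gene, which no strand setting separates, among them MAN2B1, HEXA, GLB1 and CTSD.

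Counts were tested with edgeR 4.0.16 in R 4.3.3: filterByExpr, TMM scaling, 1 quasi-likelihood fit over the 4 groups, and Benjamini-Hochberg adjustment over all 18368 genes tested, two-sided. A gene was called changed at an adjusted p under 0.05 and a DEG if its absolute log2 fold change was also at least 1. CPM values are TMM-scaled unless library totals are named. The log2 CPM values by library used a prior count of 2, and fold changes are those of the edgeR fit at its default prior count. The scripts were tested on simulated data. Replicates are biological by their labels, which do not describe the cultures, so p-values measure the spread between these libraries.

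The 39 genes and the lists were chosen with earlier results of these data known. Genes given library by library were the DEGs, the genes called in the same direction in all knockdowns (up to 5 each way, by the smallest change), the 3 with the largest difference per pair of knockdowns, the 5 highest and 3 lowest by control FPKM, and TFEB, LAMP1 and LAMP2. From each other list up to 3 DEGs with the largest change were named, and TFE3 and MITF in any case. The other genes are given by call and log2 value. Alternatives were DESeq2 1.42.0, other scalings and filters, 2 groups per fit, a replicate block, protein-coding genes, glmTreat, limma 3.58.1 on log2(FPKM + 1) and leaving out each library. Promoter windows came from the RefSeq table by symbol.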

Additional observations from a re-analysis of the deposited data

Results flagged for a closer look

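Values for the same gene differed by at least 2-fold between knockdowns, by a direct test in the same edgeR fit, in 6 instances (2, 3 and 1 of 39 genes in siNAE1 minus siUBE2M, siNAE1 minus siURM1 and siUBE2M minus siURM1, against 7.84%, 6.76% and 5.41% of all genes). They are log2 differences: CTSB -1.76 (siNAE1 minus siUBE2M) and -2.37 (siNAE1 minus siURM1), GLA 1.15 (siNAE1 minus siUBE2M) and -1.08 (siUBE2M minus siURM1), GUSB 1.30 (siNAE1 minus siURM1), and NEU1 -1.03 (siNAE1 minus siURM1). All 6 kept an adjusted p under 0.05 in each alternative analysis. NEU1 fell to just under 2-fold (-0.97) with limma on log2(FPKM + 1), where a pseudocount compresses changes. With 2 or 3 libraries per group, no library was examined as an outlier.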

How the results depend on the processing

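Over 21 alternatives, no change of a lysosomal gene past the threshold reversed its direction. Of the calls against control, 25 of 27 in siNAE1, 16 of 23 in siUBE2M and 22 of 29 in siURM1 held in every alternative that tested them. Between knockdowns this was so for 18 of 22 calls (siNAE1 minus siUBE2M), 11 of 21 (siNAE1 minus siURM1) and 14 of 19 (siUBE2M minus siURM1). Scaling by library totals gave median log2 values of 0.26, 0.0801 and 0.31 for siNAE1, siUBE2M and siURM1 against control, 0.10 for siNAE1 minus siUBE2M and -0.0878 for siNAE1 minus siURM1. The siNAE1 median was 0.37 with upper-quartile scaling, 0.36 with at least 10 counts in every library, 0.37 with 2 groups per fit, 0.36 with protein-coding genes and 0.34 with limma. The siURM1 median was 0.36 with at least 10 counts in every library, 0.37 with protein-coding genes and 0.30 with limma. Leaving out 1 library gave 0.36 to 0.41 for siNAE1, 0.0896 to 0.20 for siUBE2M, 0.38 to 0.43 for siURM1 and -0.20 to -0.14 for siUBE2M minus siURM1, and the lowest siUBE2M value came without siUBE2M replicate 3. DEGs by glmTreat, which tests against 2-fold itself, were 2 in siNAE1, 1 in siUBE2M and 2 in siURM1, and limma gave 1 in siUBE2M. The cause of these shifts was not tested. With a replicate block, 27, 24 and 27 genes were called and the siURM1 median was 0.43. Same-numbered libraries did not deviate together (r from -0.07 to 0.08 over 15 pairs, and 3 of 11 libraries correlated best with their own number), so the numbers were not taken to pair samples. Low counts limit CLN3 and GALC.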
